A study of Mus musculus with 14 samples.

Results

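Txnip and 7 genes around it were described in mouse primary cortical neuronal cultures: the alpha-arrestins Arrdc1, Arrdc2, Arrdc3 and Arrdc4, the sugar-sensing transcription factors Mlxip and Mlxipl, and thioredoxin, Txn1. They were chosen by name, and Txnip and Arrdc4 had been singled out from measured values of these same libraries, so their values and fold changes are a description. Both genes are counted among the members in the fit over all genes, and for them those counts are no test. All 8 were among the 18128 features with a value in at least 1 of 14 libraries, and 7 of them were among the 10877 genes kept for testing; Mlxipl was too low. The cultures came from wild-type C57BL/6 mice, were at 12 days in vitro and were treated for 1 h. Bicuculline, a blocker of GABA-A receptors that raises network firing, was used at 20 µM (3 libraries). Peptides made by the neuronal membrane proteasome (NMP), a proteasome at the neuronal plasma membrane, were added at 4% by volume, either together with 100 µM APV, an antagonist of NMDA-type glutamate receptors (3 libraries), or by themselves (3 libraries). The same peptides cleaved by proteinase K (PK) were also added at 4% (3 libraries), and control cultures received 1% DMSO (2 libraries, numbered 2 and 3). DMSO content is given for the control group alone, and no culture with APV alone was analysed here.

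The libraries were made from total RNA depleted of ribosomal RNA, and each value is a quantile-normalised log2 signal, on which 1 unit is a 2-fold difference. The number of features measured per library was 15824 to 16231, and the read depth is unknown. The stimuli were seen in activity-dependent genes: Npas4 averaged 5.64 in bicuculline, 0.04 in NMP peptides with APV, 3.39 in NMP peptides, 0.93 in PK-cleaved peptides and 1.31 in DMSO cultures. All 5 pan-neuronal markers (Rbfox3, Tubb3, Map2, Snap25, Syt1) were tested genes, as were 8 of 9 astrocyte markers, 1 of 8 endothelial and mural markers and 0 of 8 microglial markers. Astrocyte markers were thus measured beside neuronal ones, and in such bulk samples fewer cells of a type and less RNA per cell cannot be told apart.

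Alpha-arrestins are adaptors that link membrane proteins to NEDD4-family ubiquitin ligases and so steer their endocytosis. Txnip, the best known of them, also binds reduced thioredoxin and blocks it, and it lowers glucose uptake by taking glucose transporters off the cell surface. Its transcription follows glucose through Mlxip (MondoA) and Mlxipl (ChREBP), which bind carbohydrate response elements together with Mlx, and Arrdc4 is another target of this pair. In cultured cortical neurons, synaptic NMDA receptor activity is known to lower Txnip transcription, with forkhead (FoxO) factors acting at its promoter.

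The promoter windows of Txnip and Arrdc4 are shown because these 2 genes are the known shared targets of Mlxip and behaved differently here. Sequences are from RefSeq on GRCm38.p6, 300 bases around the annotated start, read along the gene. Capitals mark CACGTG, a pair of E-box-like motifs (CNCGNG, then CNCGNG again after 5 bases, the layout of a carbohydrate response element), CCAAT or its reverse complement ATTGG, and GTAAACA (a forkhead match). The Txnip window is chr3:96557707-96558006 on the plus strand and the Arrdc4 window is chr7:68749189-68749488 on the minus strand.
Txnip: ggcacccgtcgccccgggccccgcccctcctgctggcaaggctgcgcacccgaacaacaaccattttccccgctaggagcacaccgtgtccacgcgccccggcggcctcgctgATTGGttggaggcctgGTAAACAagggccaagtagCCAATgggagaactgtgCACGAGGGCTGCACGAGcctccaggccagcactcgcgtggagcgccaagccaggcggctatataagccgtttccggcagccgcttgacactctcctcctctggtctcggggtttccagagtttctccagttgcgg
Arrdc4: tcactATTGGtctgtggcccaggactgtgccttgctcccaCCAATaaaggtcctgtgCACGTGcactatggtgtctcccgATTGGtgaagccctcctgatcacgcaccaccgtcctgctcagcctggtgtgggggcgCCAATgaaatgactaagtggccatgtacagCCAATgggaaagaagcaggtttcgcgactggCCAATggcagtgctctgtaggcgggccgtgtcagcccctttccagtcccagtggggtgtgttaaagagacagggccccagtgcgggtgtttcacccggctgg
The Txnip window held such a pair from -85 to -69 relative to the start, CCAAT boxes at -137 and -102, and the forkhead match at -121. The Arrdc4 window held no such pair and no forkhead match, but CACGTG from -193 to -188 and 6 CCAAT boxes. Over 32851 promoter windows of the same length, searched on both strands, the E-box-like pair was in 1.39%, GTAAACA in 3.65%, CACGTG in 7.15% and CCAAT in 37.4%. TGACGTCA, the cyclic AMP response element, was in 1.79% of windows and in neither of these. Of the other alpha-arrestins, Arrdc2 had 3 CCAAT boxes and Arrdc1 had none of the motifs. Arrdc3 had 1 CCAAT box, the same site in 2 overlapping windows of its 3. These are letter matches, and binding was not measured.

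**Figure D1:**
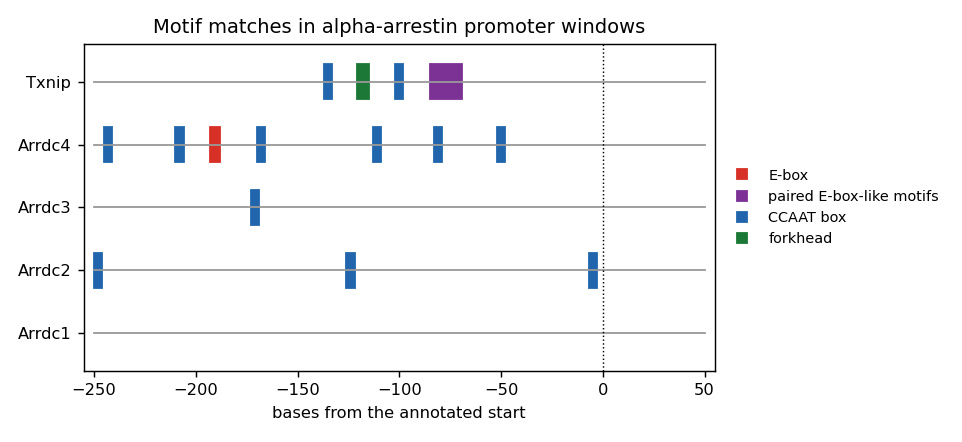
Motif matches in the promoter windows of the 5 alpha-arrestins, with distance from the annotated start in bases on the horizontal axis and 1 row per gene (for Arrdc3, the first of its 3 windows). Txnip carries the E-box-like pair and the forkhead match, and Arrdc4 carries CACGTG among 6 CCAAT boxes.

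Txnip (chr3:96557957-96561857, gene ID 56338) was lowest in the cultures given NMP peptides. Its log2 signal was 3.74, 4.62 and 4.04 in bicuculline cultures, 3.16, 3.50 and 3.20 in cultures given NMP peptides with APV, 2.34, 2.43 and 2.89 in NMP peptide cultures, 3.24, 3.32 and 4.24 in PK-cleaved peptide cultures, and 4.73 and 3.64 in DMSO cultures. All 3 NMP peptide libraries lay below all 11 others. The share of tested genes with that pattern is not given here, and the shares below are for pairs of groups. In ascending order the group means were 2.55 ± 0.30 with NMP peptides, 3.29 ± 0.18 with NMP peptides and APV, 3.60 ± 0.55 with PK-cleaved peptides, 4.13 ± 0.44 with bicuculline (SD, n = 3 each) and 4.19 ± 0.77 with DMSO (SD, n = 2). Only the first 2 neighbours in that order were separate, and the libraries of every later pair of neighbours overlapped. The lowest and highest libraries were 5.25-fold apart, a range larger than in 99.5% of tested genes. Txnip also varied within groups: its within-group SD was 0.45, against a median of 0.127 over tested genes.

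**Figure D2:**
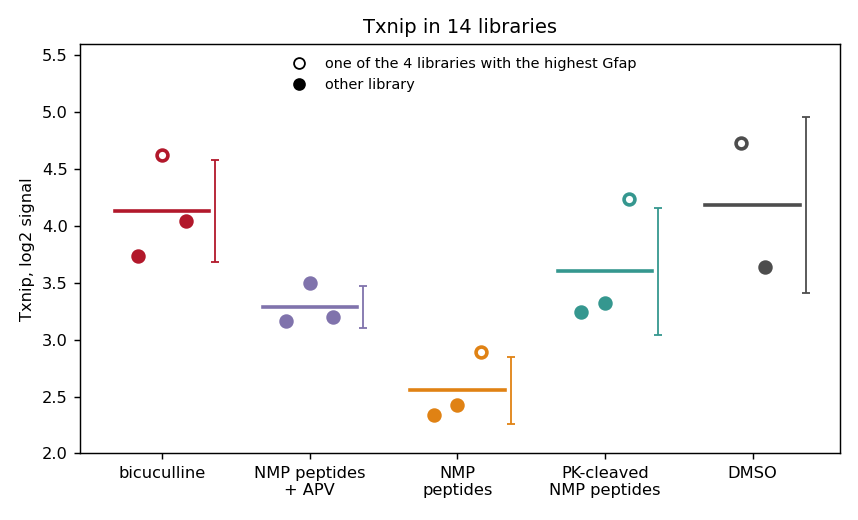
Log2 signal of Txnip in each of the 14 libraries by treatment, where each point is a library, the line is the group mean and the bar is the SD. The 3 NMP peptide libraries sit between 2.34 and 2.89, below every library of the other 4 groups, and the open points (the 4 libraries with the highest Gfap) are the highest of their groups.

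Set against DMSO, NMP peptides went with a Txnip level 0.322 times the control (log2 fold change -1.63, SE 0.34), the lowest log2 fold change of all 10877 tested genes. The libraries did not overlap, which held in the same direction for 13.1% of tested genes. This value leaned on which control was used: it was -1.09 without DMSO replicate 2 and -2.18 without DMSO replicate 3. In this comparison limma called 0.0184% of genes at an adjusted p under 0.05, and 0 of the 7 tested members. At an unadjusted p under 0.05 stood 1 member, Txnip, and 2.02% of all genes.

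Cleaving the peptides with PK went with a higher Txnip level. NMP peptides stood at 0.483 times the PK-cleaved peptides (log2 fold change -1.05, SE 0.30), again the lowest of all tested genes, and the libraries did not overlap, as held for 2.73% of tested genes in that direction. Same-numbered libraries stood at 2.34 against 3.24, 2.43 against 3.32 and 2.89 against 4.24. Without overlap any matching of the libraries puts NMP peptides lower, so the order within these pairs adds nothing. Limma called 0.0827% of genes and 0 of 7 members, with 1 member (Txnip) and 1.65% of all genes at an unadjusted p under 0.05. With same-numbered libraries matched (a replicate block), the log2 fold change of Txnip stayed at -1.05, with an SE of 0.28 in the planned fit over all libraries and 0.0965 in an unplanned fit of these 2 groups alone. The count of called members was 0 in the planned fit and 1 in the other.

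Adding APV to the peptides went with more Txnip: 1.67-fold more than NMP peptides alone (log2 fold change 0.74, SE 0.30), rank 16 from the highest among tested genes, without overlap (9.62% of tested genes in that direction). The cultures with APV nevertheless stayed below DMSO, at 0.536 times the control (log2 fold change -0.90, SE 0.34), without overlap, as held for 21% of tested genes in that direction. That second value was -0.36 without DMSO replicate 2 and -1.44 without DMSO replicate 3. Against PK-cleaved peptides the APV cultures overlapped (log2 fold change -0.31, SE 0.30), and without PK-cleaved replicate 3 that difference was 0.00408. Sums of cell type markers also had different ranges in the APV and NMP peptide cultures, while limma called 0 of the tested marker genes between them. For single genes, groups without overlap were found for 12.2% of tested genes (lower with APV) and 9.62% (higher with APV). The summed antilogged level of inhibitory neuron markers was 467 to 488 with APV against 509 to 595 with NMP peptides, and that of oligodendrocyte lineage markers 150 to 184 against 131 to 148. Excitatory neuron markers summed to 287 to 331 with APV against 240 to 297 with NMP peptides, and astrocyte markers to 307 to 336 against 260 to 307. The excitatory ranges overlapped and the astrocyte ranges met at 307. The part of these markers in the Txnip values was not tested. Among the members limma called 0 of 7 against NMP peptides, where 1.43% of all genes were called; 2 members (Txnip and Arrdc2) and 15.8% of all genes had an unadjusted p under 0.05. Against DMSO it called 0 of 7 and 0.625% of genes, with the same 2 members and 11.5% of genes at an unadjusted p under 0.05. Against PK-cleaved peptides it called 0 of 7 and 1.39% of genes, with 1 member (Arrdc2) and 15.6% of genes at an unadjusted p under 0.05.

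Bicuculline, which raised Npas4 and Fos in limma against DMSO (log2 fold change 4.33, SE 0.31, adjusted p = 5.68e-06 for Npas4), left Txnip within the range of the controls. Its Txnip log2 fold change against DMSO was -0.05 (SE 0.34), with 0.492 without DMSO replicate 2 and -0.596 without DMSO replicate 3. Against NMP peptides, Txnip was 3.00-fold higher in bicuculline cultures (log2 fold change 1.58, SE 0.30), without overlap, as held for 3.29% of tested genes in that direction. For bicuculline over DMSO limma called 0 of 7 members and 0.469% of all genes, with 0 members and 3.14% of genes at an unadjusted p under 0.05. Over NMP peptides it called 0 of 7 members and 0.175% of all genes, with 1 member (Txnip) and 2.12% of genes at an unadjusted p under 0.05. For the second of these, leaving out DMSO replicate 2, DMSO replicate 3 or PK-cleaved replicate 3 left the Txnip value at 1.58 with an SE of 0.26, and the count of called members was then 1. These libraries are not in the comparison, so the fold change cannot move and only the shared estimate of the spread changes. Txnip was chosen from these values, so that count is no test of it. PK-cleaved peptides and DMSO overlapped (log2 fold change -0.58, SE 0.34), where limma called 0 genes (0%, with 114, or 1.05%, at an unadjusted p under 0.05) and 0 of 7 members, none of which had an unadjusted p under 0.05; that value was -0.04 without DMSO replicate 2, -1.13 without DMSO replicate 3 and -0.90 without PK-cleaved replicate 3. The NMP peptide libraries enter 4 of these comparisons and the DMSO libraries 4, so the comparisons are not independent of each other.

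**Figure D3:**
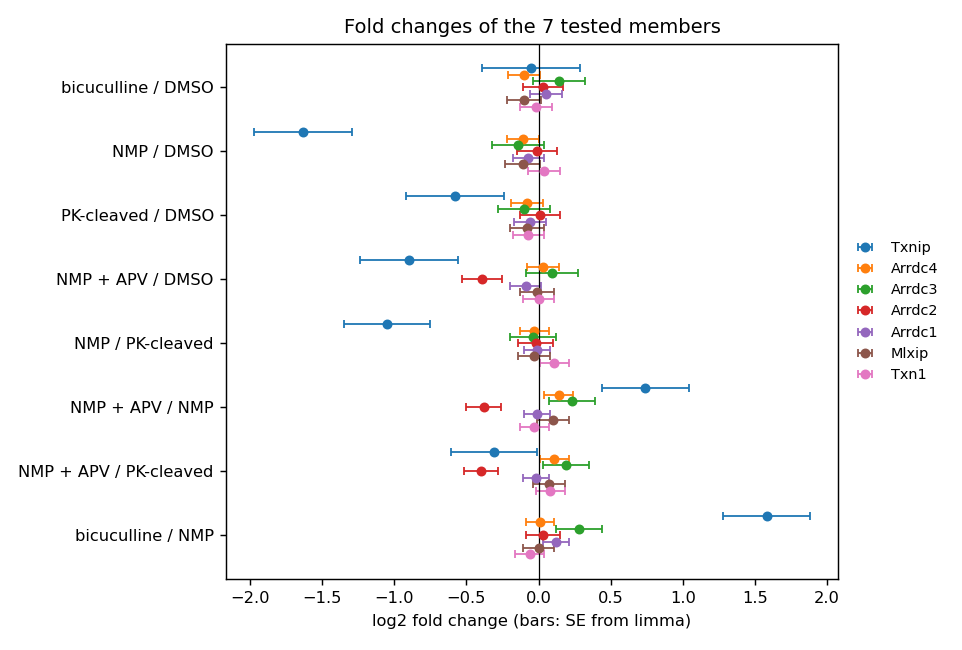
Log2 fold change of the 7 tested members in 8 comparisons, 1 row per comparison, with horizontal bars giving the SE from limma. Txnip runs from -1.63 to 1.58, while the other 6 members stay between -0.40 and 0.28.

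Txnip varied inside the groups together with Gfap, the intermediate filament protein of astrocytes. One library each of the bicuculline (replicate 2), NMP peptide (replicate 3), PK-cleaved (replicate 3) and DMSO (replicate 2) groups had a Gfap log2 signal of 4.18, 4.15, 3.97 and 4.13. The other 10 libraries, among them all 3 with APV, lay between 2.15 and 3.48. In all 4 groups the library high in Gfap was also the highest in Txnip, and likewise in Arrdc3, as was so for 12.4% of tested genes. Over the 14 libraries, deviations from the group mean had a Pearson r with Gfap of 0.938 for Txnip and 0.876 for Arrdc3, higher than in 99.9% and 99.1% of tested genes. It was 0.376 for Arrdc1, 0.354 for Arrdc4, 0.065 for Mlxip, 0.026 for Arrdc2 and -0.471 for Txn1. The correlations are a description without a test, over libraries that share groups and a normalisation. The summed antilogged level of the 9 astrocyte markers did not follow Gfap: it was 279 to 307 in bicuculline, 307 to 336 in APV, 260 to 307 in NMP peptide, 260 to 295 in PK-cleaved and 294 to 296 in DMSO cultures. It was 279, 293, 283 and 296 in the 4 libraries high in Gfap, and its part in the Txnip values was not tested. Gfap was a small part of this sum, for example 18.1 of 279 in bicuculline replicate 2. The sum thus mostly reflects the other markers and could hardly follow Gfap.

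Txnip was also set side by side within the libraries high in Gfap, with 1 library a group, and within the remaining ones. Among libraries high in Gfap, the difference of NMP peptides from PK-cleaved peptides was -1.35 (log2 signal 2.89 against 4.24) and that from DMSO -1.84 (2.89 against 4.73), and bicuculline was above NMP peptides by 1.72. Bicuculline differed from DMSO by -0.11, PK-cleaved peptides differed from DMSO by -0.49, and the APV group had no library high in Gfap. Among the remaining libraries, of which 1 was a DMSO library, the difference of NMP peptides from PK-cleaved peptides was -0.90 and from DMSO -1.26, and bicuculline was above NMP peptides by 1.51. Bicuculline differed from DMSO there by 0.25 and PK-cleaved peptides from DMSO by -0.36. APV cultures were above NMP peptides by 0.91, differed from DMSO by -0.36 and averaged 3.29, against 3.28 with PK-cleaved peptides. These values are a description without a test.

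**Figure D4:**
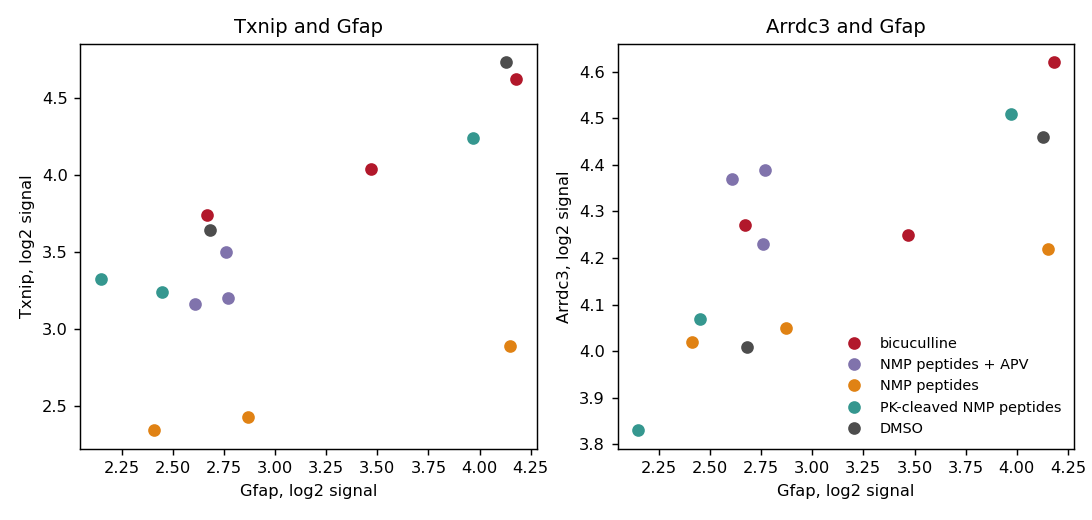
Log2 signal of Txnip (left) and Arrdc3 (right) against the log2 signal of Gfap in the 14 libraries, coloured by treatment. At similar Gfap the NMP peptide libraries lie lowest in Txnip, from 2.34 to 2.89, while Arrdc3 has no such gap between the groups.

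Arrdc4 (chr7:68736994-68749238), the alpha-arrestin closest to Txnip in its known control by sugar, did not share its pattern. Its log2 signal was 4.12, 4.43 and 4.00 in bicuculline cultures, 4.28, 4.33 and 4.34 with NMP peptides and APV, 4.31, 4.15 and 4.07 with NMP peptides, 4.12, 4.16 and 4.34 with PK-cleaved peptides, and 4.34 and 4.23 in DMSO cultures. The lowest and highest libraries were 1.34-fold apart, a larger range than in 44.9% of tested genes, and the groups of every comparison overlapped. Fold changes ran from -0.11 to 0.14 on the log2 scale. Averaged over libraries Arrdc4 was the more abundant of the pair, with an antilogged mean signal of 18.7 against 11.4 for Txnip on a scale that behaves as per length.

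Arrdc3 (chr13:80883384-80896042), which takes adrenergic receptors into endosomes, was as abundant as Arrdc4, with an antilogged mean of 18.8. Its log2 signal was 4.27, 4.62 and 4.25 with bicuculline, 4.37, 4.23 and 4.39 with NMP peptides and APV, 4.02, 4.05 and 4.22 with NMP peptides, 4.07, 3.83 and 4.51 with PK-cleaved peptides, and 4.46 and 4.01 with DMSO. The bicuculline and APV libraries all lay above the NMP peptide libraries, as held for 3.29% and 9.62% of tested genes, while PK-cleaved and DMSO libraries spanned both. The log2 fold changes over NMP peptides were 0.28 (SE 0.16) for bicuculline and 0.23 (SE 0.16) for APV, and neither was called (limma, adjusted p = 1 and 0.494).

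Arrdc2 (chr8:70835129-70839720) was the member with lower values in the APV cultures. Its log2 signal was 1.80, 2.12 and 1.94 with bicuculline, 1.56, 1.76 and 1.29 with NMP peptides and APV, 2.07, 1.85 and 1.84 with NMP peptides, 2.07, 1.88 and 1.87 with PK-cleaved peptides, and 1.97 and 1.88 with DMSO. All 3 APV libraries lay below the 11 others, and those 11 lay between 1.80 and 2.12. How many tested genes had that pattern is not given here. The log2 fold change of APV was -0.38 (SE 0.12) over NMP peptides, -0.40 (SE 0.12) over PK-cleaved peptides and -0.39 (SE 0.14) over DMSO. Groups without overlap in that direction were found for 12.2%, 11.4% and 21% of tested genes in these comparisons. The adjusted p from limma was 0.171 over NMP peptides, 0.148 over PK-cleaved peptides and 0.305 over DMSO, so Arrdc2 was not called. Its direction in the APV cultures was the opposite of that of Txnip over NMP peptides only. Over PK-cleaved peptides and DMSO, Txnip too was lower with APV, at log2 fold changes of -0.31 and -0.90. Arrdc1 (chr2:24925352-24935335), which drives budding of vesicles at the plasma membrane, stayed between 2.19 and 2.52 in all libraries, with log2 fold changes of -0.09 to 0.12.

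Mlxip (chr5:123394521-123457932), the more broadly expressed sensor, stayed between 2.17 and 2.56, with log2 fold changes of -0.11 to 0.10. Mlxipl (chr5:135089890-135139768), the sensor of liver and fat, lay at log2 signals of -4.41 to -3.38, below the mean needed for testing (0.35). On the antilogged scale it was 79.2-fold below Mlxip. Its values were -4.21, -3.38 and -4.17 with bicuculline, -3.78, -3.60 and -3.51 with NMP peptides and APV, -3.84, -3.65 and -3.76 with NMP peptides, -4.38, -4.41 and -4.16 with PK-cleaved peptides, and -4.09 and -3.75 with DMSO. The PK-cleaved libraries lay below the libraries of both NMP peptide groups, a pattern seen in 2.48% of tested genes for NMP peptides and 8.84% for NMP peptides with APV. Mlxipl is not one of those tested genes, which are more abundant, and both comparisons use the same PK-cleaved libraries. In a fit without the filter on low values, the log2 fold change of NMP peptides over PK-cleaved peptides was 0.57 (SE 0.34, limma adjusted p = 1) and that of APV over PK-cleaved peptides 0.69 (SE 0.34, limma adjusted p = 0.382). Txn1 (chr4:57943373-57956411), the redox protein that Txnip binds, was the most abundant member, 10.2-fold above Txnip on the antilogged scale. Its log2 signal lay between 6.69 and 7.10 in all libraries, with fold changes of -0.07 to 0.11.

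**Figure D5:**
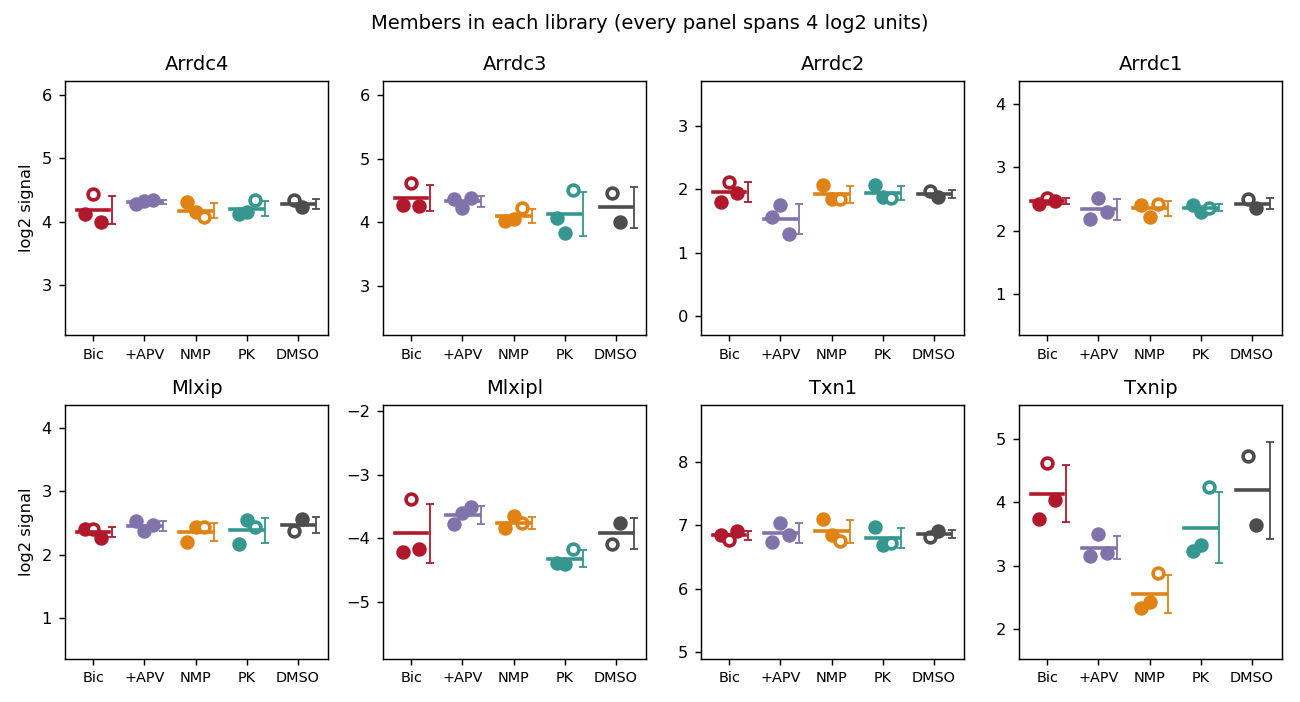
Log2 signal of the 8 members in each library by treatment (Bic, bicuculline; +APV, NMP peptides with APV; NMP, NMP peptides; PK, PK-cleaved peptides), with the line at the group mean, the bar at its SD, open points for the 4 libraries high in Gfap, and 4 log2 units spanned by every panel. Txnip alone spreads over 2.39 units, and the 3 APV libraries are the lowest in Arrdc2.

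The pathways around these genes held few calls. The 9 lists held 125 genes, of which 106 were tested in 8 comparisons. Energy sensing kinases and FoxO factors gave 3 calls over 15 tested genes, all of them Prkab2, a beta subunit of the AMP-activated kinase, which is known to mark Txnip protein for degradation. Prkab2 stood at 4.21, 4.16 and 4.09 in the APV cultures, above all other libraries, against 3.26, 3.33 and 3.54 with NMP peptides. How many tested genes were highest in the APV cultures in this way is not given here. In limma it rose by 0.77 on the log2 scale over NMP peptides (adjusted p = 0.00186), by 0.68 on the log2 scale over PK-cleaved peptides (adjusted p = 0.00382) and by 0.59 on the log2 scale over DMSO (adjusted p = 0.0284). The call over NMP peptides held in 23 of 23 alternatives, that over PK-cleaved peptides in 22 of 23 (lost with a replicate block in those 2 groups alone, limma adjusted p = 0.0834), and that over DMSO in 15 of 22. The last was lost with only the 2 groups fitted, without the 4 libraries high in Gfap, and without APV replicate 1, 2 or 3 or without DMSO replicate 2 or 3, where the log2 fold change was 0.47 to 0.71 and the adjusted p from limma reached 0.283. Glucose transport gave 1 call over 5 tested genes. Slc2a1, the glucose transporter GLUT1 that Txnip is known to take off the cell surface, stood at 3.71, 3.55 and 3.99 in bicuculline cultures against 2.91 and 3.14 in DMSO cultures. It rose 1.65-fold (limma, adjusted p = 0.0284), while its log2 fold change for NMP peptides over DMSO was 0.07 (SE 0.14). The Slc2a1 call held in 14 of 22 alternatives. It was lost with the replicate block (log2 fold change 0.75, SE 0.15, limma adjusted p = 0.0629), with only the 2 groups fitted, without the 4 libraries high in Gfap, and without bicuculline replicate 1 or 3, APV replicate 3, or DMSO replicate 2 or 3, with log2 fold changes of 0.60 to 0.83 and a limma adjusted p of up to 0.449.

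None of the other 7 lists held a called gene in any of the 8 comparisons. The list medians stayed within -0.18 to 0.15 on the log2 scale. The list of NEDD4-family ligases also holds Ndfip1 and Ndfip2, which are not ligases. It had a median of -0.18 for NMP peptides over DMSO and -0.17 for bicuculline over DMSO, each with 0 of 11 above 0, beside -0.04 and -0.03 over all tested genes. Both comparisons use the same DMSO libraries. In the 11 tested carbohydrate-response targets the median was -0.13 for NMP peptides over DMSO (-0.04 over all tested genes) and 0.12 for APV over NMP peptides (-0.01 over all). It was -0.01 for NMP peptides over PK-cleaved peptides (0 over all), with 4 of 11 above 0, and -0.08 for PK-cleaved peptides over DMSO (-0.04 over all). Of these targets, Klf10, a zinc finger repressor induced by sugar, had the same order of group means as Txnip, with 1.73, 1.59 and 1.59 in NMP peptide cultures and 1.90 to 2.42 in the other groups. Its log2 fold change for NMP peptides was -0.63 (SE 0.13, limma adjusted p = 0.164) over DMSO and -0.43 (SE 0.11, limma adjusted p = 0.784) over PK-cleaved peptides, and it was 0.38 (SE 0.11, limma adjusted p = 0.124) for APV over NMP peptides. How many tested genes had the Klf10 pattern is not given here. Scd1, another of these targets, did not have that order. It stood at 5.12, 5.43 and 5.19 with NMP peptides, 5.06, 5.39 and 5.32 with PK-cleaved peptides and 5.37, 5.19 and 4.87 with bicuculline. The 20 glycolysis genes had a median of 0.15 for bicuculline over NMP peptides (0 over all), with 19 of 20 above 0 and 0 called. That was the highest median of this list. It was 0.07 for bicuculline over DMSO (-0.03 over all), with 14 of 20 above 0. For NMP peptides over DMSO it was -0.07 (-0.04 over all), with 2 of 20 above 0. Sesn2 and Srxn1, antioxidant genes known to be induced by synaptic activity and singled out here after their values were seen, were at 4.42 ± 0.11 and 3.76 ± 0.26 with NMP peptides (SD, n = 3) against 4.15 ± 0.57 and 3.80 ± 0.34 with DMSO (SD, n = 2). Neither was called.

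By Pearson r over the 14 libraries, the tested genes most like Txnip were Casp6 (0.839), B3galnt2 (0.838), Ebf4 (0.808), Tulp3 (0.792) and Tmem206 (0.792). Casp6, an effector caspase, averaged 1.29 with NMP peptides against 1.61 with PK-cleaved peptides. Those most like Arrdc4 were Ccdc71l (0.855), Cul4a (0.854), Gpbp1l1 (0.837), Dsel (0.821) and Mgat4b (0.803), and the 2 sets shared 0 genes. These values too are a description. Ranked by Spearman's rho, 1 of the 5 genes of Txnip and 3 of the 5 of Arrdc4 were again among the first 5.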

How the data were processed

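The authors deposited 1 table of 45802 features in 14 libraries, of which 27674 had no value in any library. Each deposited score is a quantile-normalised log2 signal. Antilogs with base 2, times exon length, total 1180000 to 1270000 in each library, as for a per-length unit, while base e would give 8360000 to 9080000. The build is GRCm38.p6, per the submitters' processing notes, while the software behind alignment and counting is not given in the sources used here, nor is the annotation. Read depth cannot be recovered from such values, and shifts of total RNA are hidden.

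The lowest 40% of features by mean were dropped. A linear model of 5 group means over all libraries was fitted with limma 3.58.1 in R 4.3.3, with a variance trend. P-values were two-sided and adjusted by Benjamini-Hochberg over 10877 genes per comparison, with calls at an adjusted p under 0.05. The procedure was tested on simulated data. Among the tested genes 21 had date-like names and were not named. What the biological replicates replicate is not stated, so p-values reflect only the spread among these libraries.

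Members, lists and tests were chosen with earlier results of these data known. The genes named are the members, the 5 most like Txnip and Arrdc4, called genes of each list (up to 4), and Npas4 and Fos. For a list without a call, the rule set its 2 genes with the smallest p for APV against NMP peptides. Those 2 are given only for carbohydrate-response targets (Klf10, Scd1) and glycolysis (Aldoc, Hk2), and those of the other lists are left out. Sesn2, Srxn1, Gfap and the genes closest by deviations were named after their values were seen. Same-numbered NMP peptide and PK-cleaved libraries deviated from their group means together (Pearson r over genes 0.51, 0.499 and 0.613), so these numbers were taken to pair those libraries. In the other comparisons this r ran from -0.48 (NMP peptides and DMSO, replicate 3) to 0.542 (bicuculline and DMSO, replicate 2). A pairing by number over all 5 groups, which the replicate block over all libraries assumes, is thus not shown. Alternatives changed the filter, scaling, replicate block, groups fitted, variance trend, weights and libraries included.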

Additional observations from a re-analysis of the deposited data

How the results depend on the processing

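The count of called members stayed at 0 under every alternative run for bicuculline, PK-cleaved peptides and APV against DMSO and for APV against PK-cleaved peptides. In the other 4 comparisons it became 1, Txnip, under these settings: NMP peptides against DMSO without the 4 libraries high in Gfap (1), NMP peptides against PK-cleaved peptides with a replicate block in those 2 groups alone (1), APV against NMP peptides with only the 2 groups (1) or without the 4 libraries (1), and bicuculline against NMP peptides without the 4 libraries (1). Leaving out each library in turn gave 0 to 1 for bicuculline against NMP peptides and 0 elsewhere. The Gfap setting and the block within 2 groups were chosen after seeing the data. Txnip is highest in these 4 libraries within their groups, so leaving them out narrows its spread by construction, and the lone DMSO library left is assumed to vary like the other groups. Txnip was chosen from these values, so none of these counts tests it. The planned replicate block over all libraries gave 0 called members in every comparison, and for NMP peptides against PK-cleaved peptides a Txnip log2 fold change of -1.05 (SE 0.28). Of 1236 recomputed fold changes of members, 1235 moved by less than the spread between replicates, and 1 moved by more: Arrdc4 for NMP peptides over PK-cleaved peptides, -0.15 with array weights. Many of these could not move. Changing the filter or variance trend, or leaving out a library of another group, keeps a fold change and its direction by construction. The spread was the larger SD of the 2 compared groups, which for Txnip was 0.77 in DMSO cultures. The direction of the Txnip difference was kept in 18 of 22 settings for bicuculline over DMSO, in 21 of 23 for APV over PK-cleaved peptides and in every setting of the other 6 comparisons. Of the called genes outside the members, Prkab2 lost its call over DMSO in 7 of 22 settings and Slc2a1 in 8 of 22, and the cause was not tested. Over all settings Txnip ran from -2.18 to -1.09 for NMP peptides over DMSO, from -1.27 to -0.73 for NMP peptides over PK-cleaved peptides, from 0.56 to 0.91 for APV over NMP peptides and from 1.34 to 1.78 for bicuculline over NMP peptides. The alternative for linear values did not apply. With only 2 DMSO libraries and unknown depth, precision is limited.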

Other observations

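The genes ranked closest to Txnip depended on whether group means were removed. Ranked by the Pearson r of deviations from the group means over the 14 libraries, the closest tested genes were Anapc5 (0.966), a subunit of the anaphase-promoting complex, Serpinh1 (0.964), a collagen chaperone, Amz2 (0.958), Papss1 (0.957), which makes the sulfate donor of the cell, and Zfp146 (0.953). None of these 5 was among the 5 genes most like Txnip over the library values themselves, where Serpinh1 had r = 0.551. Those 5 also followed Txnip within groups, with r of deviations from 0.688 for Tulp3 to 0.828 for Tmem206. For Arrdc4, 2 of the 5 closest by deviations, Dsel and Ccdc71l, were also among the 5 closest by library values. Within groups, r with Txnip was 0.863 for Arrdc3 and 0.545 for Arrdc4. The share of tested genes with a lower r with Txnip is not given here. With Gfap, the r of 0.354 for Arrdc4 was higher than in 66.9% of tested genes. Hk2, the inducible hexokinase, had a log2 signal of 0.51 ± 0.26 with NMP peptides and APV against 1.18 ± 0.46 with NMP peptides (SD, n = 3 each), a difference that was not called (limma, adjusted p = 0.319). Aldoc, another glycolysis gene, went the other way, with a log2 fold change of 0.22 (SE 0.07) for APV over NMP peptides. It was not called either (limma, adjusted p = 0.158).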
